A study of Mus musculus with 32 samples.

Results

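Heat shock proteins and chaperones were followed in the prefrontal cortex of mice bred for opposite severity of ethanol withdrawal. A spot was a member when its title held "heat shock", "chaperon" or "collagen binding protein 1" and was not that of an expressed sequence tag, and Hspb8 and Hspe1 were named as members. The members were 7 of 4696 gene spots, of which 6 were found by title. The other, Hspb8, was found by name alone: its title calls it small stress protein-like protein HSP22, a synonym of Hspb8 in RefSeq. A spot was measured when its signal was at least 2 times the array background on at least 4 of 32 arrays, which held for 5 members and for 2084 gene spots in all. The measured members were Hspe1, Hspa4, Dnajb1, Serpinh1 and Hspb8, and the spots of Cct2 and Cct6a stayed below 2 times background on every array.

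The arrays formed 8 groups of 4, the EtOH and the Air arrays of female WSP, female WSR, male WSP and male WSR mice. WSP (withdrawal seizure-prone) and WSR (withdrawal seizure-resistant) mice descend from one heterogeneous stock, HS/Ibg, and each was bred as 2 independent breeding lines, WSP-2 and WSP-1, WSR-2 and WSR-1. EtOH mice, drug-naive adults of selected generation 26, were injected with ethanol at 1.5 g/kg, or at a somewhat higher dose in WSP-2, and breathed ethanol vapor for 72 h. Air mice stayed in air chambers, and pyrazole, which blocks alcohol dehydrogenase, was given to mice of both treatments at 68.1 mg/kg. The cortex was dissected 21 days after exposure. Each array carried RNA of 2 pooled animals, and each group held 2 pools from each breeding line, so n below counts arrays. All pools of a breeding line share its ancestry, yet the tests count each array as independent. In comparisons of sex, line and treatment, the spread behind the p-values mixes pools with the 2 breeding lines of a group. In comparisons of breeding lines it covers pools alone. The p-values therefore do not measure the spread from one selected line to another. In bulk tissue, fewer cells that express a gene and less of its RNA per cell cannot be told apart.

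Heat shock proteins are chaperones that bind unfolded or damaged proteins and keep them from clumping, refold them or pass them to degradation. Many are induced by heat shock factor 1, which binds repeats of short units, NGAAN, facing in alternating directions in the promoter. In brain they guard synaptic and mitochondrial proteins, and small heat shock proteins are linked to neurodegeneration. Hspe1 (HSP10) is the lid of the mitochondrial folding chamber formed by Hspd1. Hspa4 is an HSP110-type exchange factor of HSP70, and Dnajb1 (HSP40) delivers clients to HSP70 and starts its ATP cycle. Cct2 and Cct6a are subunits of the cytosolic chaperonin that folds actin and tubulin. Serpinh1 (HSP47) is the procollagen chaperone of the endoplasmic reticulum, and Hspb8 (HSP22) is a small heat shock protein that works with Bag3 in selective autophagy.

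RefSeq promoters of the 3 named members, windows of 300 bases across the gene start in GRCm38.p6, show how differently they carry paired heat shock units. The motifs looked for were GAANNTTC and TTCNNGAA. Each is its own reverse complement, so one search covers both strands. Matches are in capitals and can overlap.
Hspe1: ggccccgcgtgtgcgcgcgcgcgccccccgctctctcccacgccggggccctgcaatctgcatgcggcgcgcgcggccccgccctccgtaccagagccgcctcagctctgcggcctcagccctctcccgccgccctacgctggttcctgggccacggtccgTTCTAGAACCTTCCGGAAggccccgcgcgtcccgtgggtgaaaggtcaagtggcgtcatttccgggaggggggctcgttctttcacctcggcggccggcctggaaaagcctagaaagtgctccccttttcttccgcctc
Hspb8: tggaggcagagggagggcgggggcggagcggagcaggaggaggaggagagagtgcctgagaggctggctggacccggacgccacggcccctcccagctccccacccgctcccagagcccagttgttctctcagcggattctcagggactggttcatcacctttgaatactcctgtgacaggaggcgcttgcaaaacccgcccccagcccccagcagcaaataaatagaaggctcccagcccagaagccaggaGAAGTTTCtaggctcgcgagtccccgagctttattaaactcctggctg
Serpinh1: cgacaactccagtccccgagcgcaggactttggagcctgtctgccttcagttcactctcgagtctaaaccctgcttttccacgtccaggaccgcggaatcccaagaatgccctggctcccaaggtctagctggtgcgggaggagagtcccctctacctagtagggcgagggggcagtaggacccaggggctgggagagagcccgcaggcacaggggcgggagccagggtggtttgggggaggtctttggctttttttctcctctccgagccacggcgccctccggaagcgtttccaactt
The Hspe1 window, chr1:55087898-55088197 on the plus strand, held 3 matches, 1 of GAANNTTC and 2 of TTCNNGAA. They overlap in a single run between 89 and 72 bases before the start. The Hspb8 window, chr5:116422815-116423114 on the minus strand, held 1 match, which begins at base 3 of the transcript. The Serpinh1 window, chr7:99353190-99353489 on the minus strand, held none. Among 32851 RefSeq windows of that length, 7.86% held GAANNTTC, 8.52% held TTCNNGAA and 15.1% held either, while 0.256% held 3 or more matches. Neither motif was in the windows of Dnajb1 and Hspa4, while 1 of 2 windows of Cct2 and the window of Cct6a held 1 match each. A match describes letters in a window and does not show that a factor binds there.

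Array brightness parted the male WSR arrays from the rest, which bears on every line and sex difference below. On the 8 male WSR arrays, 1682 to 2040 gene spots reached 2 times background, against 518 to 1428 on the other 24 arrays. Brightness and the male WSR group therefore cannot be told apart. Male WSP arrays were the dimmest by median, at 554 spots (518 to 604). The median was 953.5 in female WSP (588 to 1428) and 931 in female WSR mice (783 to 1095). Comparisons of the male lines thus set the brightest group against the dimmest, and those of the sexes within WSP also differ in brightness. Of 10 spots titled for marker genes of brain and neighbouring cell types, 7 were measured, and none was found for microglia. The single neuron spot reached 2 times background on 11 arrays and the single measured oligodendrocyte spot on 9, whereas an astrocyte, a choroid plexus and a blood spot did so on all 32. Spots are named by their titles, and their sequences were not checked. Precision is limited by the number of arrays.

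**Figure D1:**
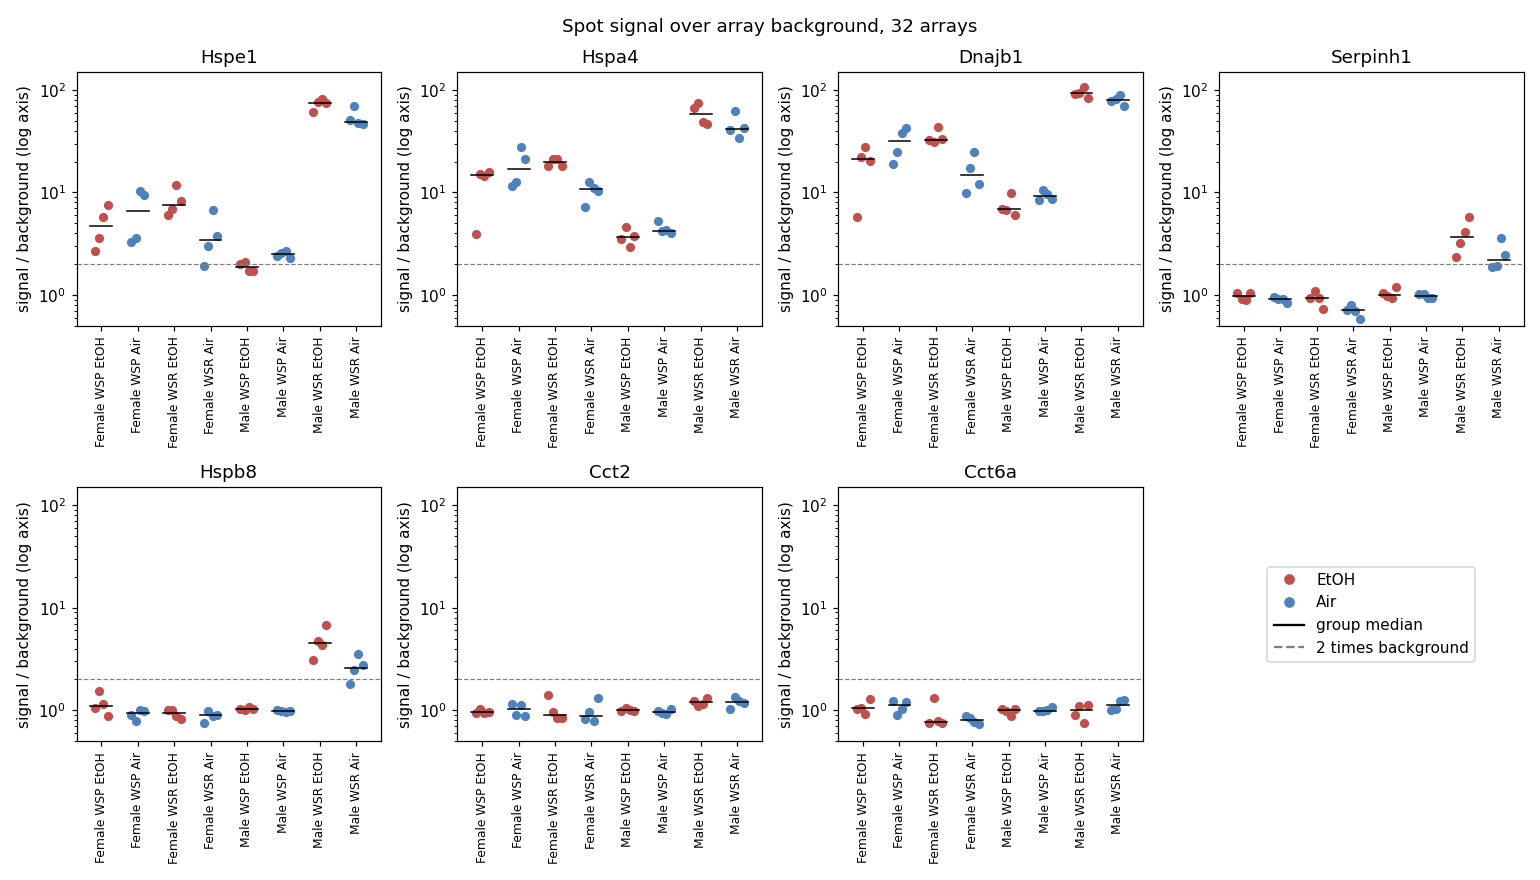
Signal over array background (log axis, before normalization) of the 7 members, 1 point per array and a bar at the group median, with a dashed line at 2 times background. Serpinh1 and Hspb8 cross the line on male WSR arrays only, Hspa4 and Dnajb1 lie above it on all 32 arrays, and Cct2 and Cct6a lie below it on all 32.

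Hspe1 was bright in male WSR cortex and modest elsewhere. Before normalization, its signal over background on male WSR arrays was 61.4, 76.6, 81.1 and 74.0 in EtOH pools, against 51.1, 69.7, 47.2 and 46.4 in Air pools. No other array exceeded 11.96. The normalized log2 intensity of male WSR arrays was 7.84, 8.03, 8.24 and 8.58 in EtOH pools and 7.97, 7.99, 8.09 and 7.99 in Air pools. The other 24 arrays ranged from 6.40 to 7.44 with a median of 7.15. The male WSR arrays thus lay above all others without overlap, and treatment did not separate them. Ranked within its own array, Hspe1 stood at the 91.6th to 94.1st percentile of gene spots on male WSR arrays. On the other 24 arrays it stood at the 82.5th to 90.1st percentile.

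**Figure D2:**
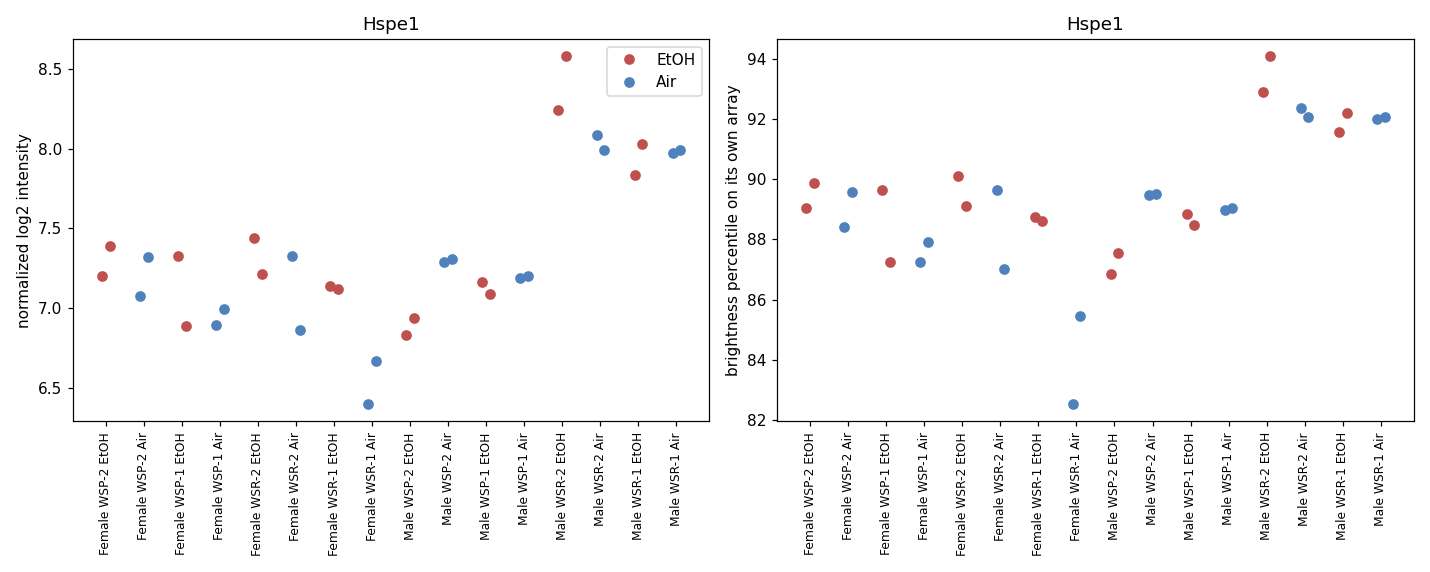
Hspe1 on each of 32 arrays by sex, breeding line and treatment, as normalized log2 intensity (left) and as the percentile of its brightness among the gene spots of its own array (right), 2 pools per position. All 8 male WSR arrays lie above the other 24 on both scales.

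In males, WSP cortex had less Hspe1 signal than WSR cortex. Normalized log2 intensity averaged 7.13 ± 0.17 in male WSP and 8.09 ± 0.23 in male WSR mice (SD, n = 8 each). The log2 difference was -0.96 ± 0.11 (SE), with a limma adjusted p of 4.7e-09, and all 8 male WSP arrays lay below the male WSR mean. On 3 of the 8 male WSP arrays the spot was below 2 times background, at 1.71 or more, so the lower mean lies near the limit of measurement and the size of the difference is approximate. By size it was number 77 among 2084 spots. It was -1.11 with cyclic loess and -3.39 with median scaling, where the median of all spots was -0.69. In females the averages were 7.14 ± 0.20 in WSP and 7.02 ± 0.35 in WSR mice (SD, n = 8 each), a difference of 0.11 ± 0.11 (SE, limma adjusted p = 0.57), and the lines overlapped. The direction in females turned under median scaling and in the authors' table. The difference between the female and the male line difference was 1.08 ± 0.15 (SE) on the log2 scale, with a limma adjusted p of 7.9e-07. That test and the one of sex within WSR were added after the values had been seen.

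Sex gave the same picture from the other side. Within WSR, female cortex had less Hspe1 than male cortex by a log2 difference of -1.07 ± 0.11 (SE, limma adjusted p = 6.1e-10), and all 8 female arrays lay below the male mean. Within WSP the log2 difference between females and males was 0.01 ± 0.11 (SE, limma adjusted p = 0.97), with 4 of 8 female arrays above the male mean. The 2 comparisons within WSR and within males share the male WSR arrays, so they do not count as separate observations.

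The order of Hspe1 by sex and breeding line put both male WSR lines on top. Mean normalized log2 intensity was 8.22 ± 0.26 in male WSR-2 and 7.96 ± 0.08 in male WSR-1 mice (SD, n = 4 each). Next came female WSP-2 at 7.25 ± 0.14, female WSR-2 at 7.21 ± 0.25 and male WSP-1 at 7.16 ± 0.05 (SD, n = 4 each). Male WSP-2 followed at 7.09 ± 0.24, female WSP-1 at 7.03 ± 0.21 and female WSR-1 at 6.83 ± 0.36 (SD, n = 4 each). The only neighbours in this order whose arrays did not overlap were male WSR-1, lowest at 7.84, and female WSP-2, highest at 7.39. Over both sexes WSR-2 averaged 7.72 ± 0.59 and WSR-1 7.40 ± 0.65 (SD, n = 8 each), a difference of 0.32 ± 0.08 (SE, limma adjusted p = 0.10), where 1 of 2084 spots passed (0.048%). With array weights its adjusted p was 0.044. WSP-2 and WSP-1 differed by 0.08 ± 0.08 (SE, limma adjusted p = 0.81), and no spot passed (0%).

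Serpinh1 and Hspb8 were at 2 times background in male WSR cortex only. Signal of Serpinh1 over background in male WSR mice was 2.34, 3.21, 4.15 and 5.79 in EtOH pools, against 1.88, 1.94, 3.60 and 2.46 in Air pools. On the other 24 arrays it did not exceed 1.19. Hspb8 stood at 3.08, 4.75, 4.32 and 6.84 times background in male WSR EtOH pools, against 1.81, 2.47, 3.51 and 2.74 in male WSR Air pools. Elsewhere it did not exceed 1.53. The values of the 2 treatments overlapped for both genes, and 6 and 7 of the 8 arrays reached 2 times background.

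Both genes passed the filter through the male WSR arrays alone, so their signal over background had to be higher there. A fold cannot be given against groups below 2 times background. Serpinh1 averaged a normalized log2 intensity of 5.78 ± 0.14 in male WSP and 5.97 ± 0.09 in male WSR mice (SD, n = 8 each). Hspb8 averaged 5.76 ± 0.04 in male WSP and 6.01 ± 0.10 in male WSR mice (SD, n = 8 each). No p is given, because the filter chose these spots through the higher group. A single male WSP EtOH array, replicate 4, put Serpinh1 at 6.11 although its signal was 1.19 times background, inside the male WSR range of 5.84 to 6.12. In females the WSP averages were 5.72 ± 0.04 for Serpinh1 and 5.77 ± 0.11 for Hspb8 (SD, n = 8). The female WSR averages were 5.72 ± 0.03 and 5.75 ± 0.02 for those genes (SD, n = 8), and all of these arrays were below 2 times background.

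Hspa4, the HSP70 exchange factor, was measured on all 32 arrays and was close to level across lines after quantile normalization. It averaged 7.79 ± 0.18 in male WSP and 7.70 ± 0.23 in male WSR mice (SD, n = 8 each), a log2 difference of 0.09 ± 0.09 (SE, limma adjusted p = 0.39). The sign of that difference rests on the scaling, since it was -0.48 with cyclic loess (adjusted p = 5.6e-05) and -2.67 with median scaling (adjusted p = 1.8e-15). It was also negative in the authors' table (adjusted p = 2.4e-05), so Hspa4 was called lower in male WSP under each of these 3 alternatives. Before normalization the signal was 2.97 to 5.30 times background in male WSP and 33.9 to 75.1 times background in male WSR mice. In females Hspa4 averaged 7.94 ± 0.11 in WSP and 7.89 ± 0.07 in WSR mice (SD, n = 8 each, limma adjusted p = 0.77), and the lines overlapped. Within WSR all 8 female arrays lay above the male mean, by a log2 difference of 0.19 ± 0.09 (SE, limma adjusted p = 0.073), whose sign also turned with median scaling, loess and the authors' table.

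Dnajb1, the HSP40 partner of HSP70, was the brightest member, at 5.77 to 106 times background. It averaged 8.53 ± 0.12 in male WSP and 8.76 ± 0.32 in male WSR mice (SD, n = 8 each), a log2 difference of -0.23 ± 0.12 (SE, limma adjusted p = 0.097). The adjusted p was 0.0022 with cyclic loess and 0.035 without replicate 2, and the sign was positive in the authors' table. Within WSR the female arrays were at 8.52, 8.25, 8.63 and 8.45 in EtOH pools and 8.08, 8.27, 8.66 and 8.18 in Air pools. The male WSR arrays were at 8.57, 8.56, 8.76 and 8.94 in EtOH pools and 8.78, 8.30, 9.39 and 8.79 in Air pools. The sexes overlapped, but all 8 female arrays lay below the male mean, and the log2 difference was -0.38 ± 0.12 (SE, limma adjusted p = 0.0063). Without replicate 4 of every group the adjusted p was 0.064, and in the authors' table the difference was 0.10 with an adjusted p of 0.65. The 4 male WSR-2 arrays averaged 8.97 ± 0.29 and the 4 male WSR-1 arrays 8.55 ± 0.20 (SD), while over both sexes WSR-2 minus WSR-1 was 0.31 ± 0.11 (SE, limma adjusted p = 0.23).

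**Figure D3:**
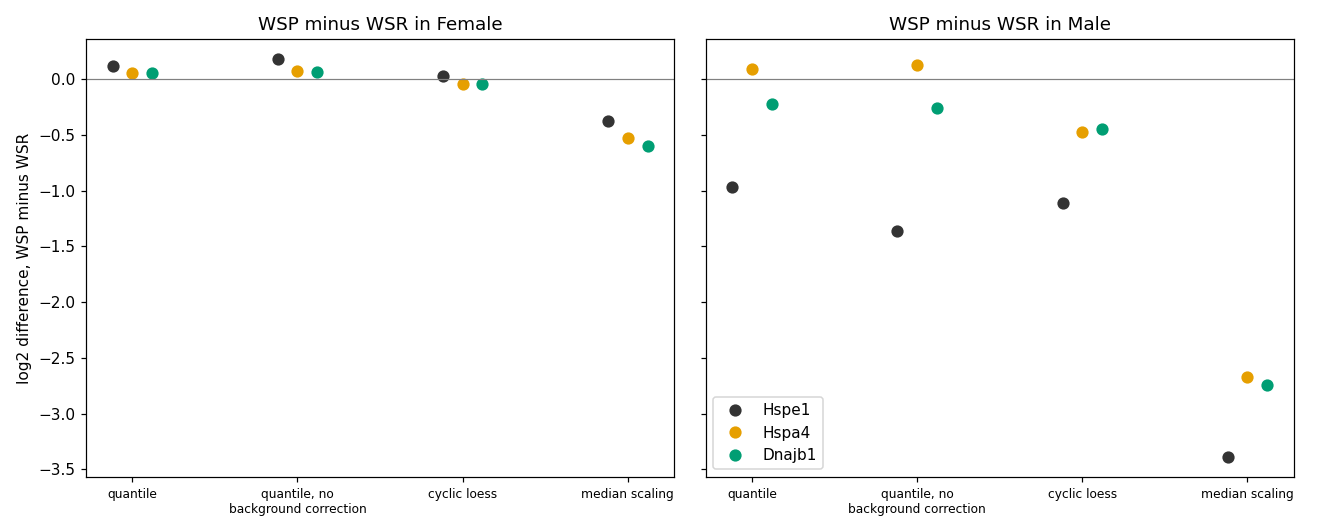
Log2 difference WSP minus WSR of Hspe1, Hspa4 and Dnajb1 in females (left) and males (right) under 4 ways of scaling the arrays. In males Hspe1 lies below 0 under all 4, while Hspa4 is 0.09 with quantile normalization and -2.67 with median scaling.

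Counted over the 5 measured members, the line and sex differences followed the male WSR arrays. Male WSP cortex had 3 members lower than male WSR cortex (Hspe1, Serpinh1 and Hspb8) and none higher, where limma called 34% of all spots lower and 58.3% in either direction. The median log2 difference was -0.23 over members and -0.0046 over all spots. Over both sexes the same 3 were lower in WSP, where 54.4% of spots were called and 32% were lower. Between female WSP and female WSR no member passed, against 12.1% of all spots, and no member had an unadjusted p under 0.05 there, against 501 spots. Within WSR, 4 members were lower in females than in males (the same 3 and Dnajb1), where 60.2% of spots were called and 35.1% were lower. Within WSP no member passed between females and males, against 18.7% of spots, with 626 spots and no member under 0.05 unadjusted. The female and male line differences differed for 3 members, all in the higher direction, where 53.1% of spots were called and 32.3% were higher. These shares of all spots are large, and the filter chose Serpinh1 and Hspb8 through their male WSR arrays. The counts therefore describe the members and set nothing apart about them.

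Ethanol left no called change in any member at 21 days. In female WSP no member passed limma's test at an adjusted p under 0.05, against 0.384% of all spots, and the lowest member value was 0.18. The share of all spots was 0.048% for female WSR, 0.048% for male WSP and 0% for male WSR, and no member passed there either. Over all groups 0% of spots passed. Unadjusted p-values under 0.05 were held by 1 member (Hspb8) of female WSP, where 260 of all spots held one. Hspb8 was below 2 times background on all 8 female WSP arrays. Female WSR had 1 such member (Hspe1) and 270 spots, male WSP 0 and 176, and male WSR 1 (Hspb8) and 64. The median log2 difference of the members was 0.06 for female WSP, where that of all spots was -0.0049. For female WSR these medians were 0.05 and 0.05, for male WSP -0.01 and -0.0031, and for male WSR 0.08 and 0.0056.

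Hspe1 gave wider ethanol differences than Hspa4 and Dnajb1 in each group of sex and line, with opposite signs in 2 groups. In female WSR its normalized log2 intensity was 7.14, 7.12, 7.44 and 7.21 in EtOH pools, against 6.40, 6.67, 7.33 and 6.86 in Air pools. All 4 EtOH arrays exceeded the Air mean, but the highest Air pool lay above 3 of the EtOH pools. The log2 difference was 0.41 ± 0.15 (SE, limma adjusted p = 0.29). In male WSP it was 7.16, 7.09, 6.83 and 6.94 in EtOH pools, against 7.19, 7.20, 7.29 and 7.31 in Air pools. Here the treatments did not overlap and every EtOH pool was lower, by a log2 difference of -0.24 ± 0.15 (SE, limma adjusted p = 0.75). The spot reached 2 times background on 1 of these EtOH arrays and on all 4 Air arrays.

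In female WSP, Hspe1 was at 7.33, 6.89, 7.20 and 7.39 in EtOH pools, against 6.89, 6.99, 7.08 and 7.32 in Air pools. These overlapped, and the log2 difference of 0.13 ± 0.15 (SE, limma adjusted p = 0.83) turned negative with median scaling. In male WSR the difference was 0.16 ± 0.15 (SE, limma adjusted p of 0.9999). Between lines, WSP less WSR, the ethanol differences were apart by -0.34 ± 0.15 (SE, limma adjusted p = 0.34), where 0.24% of spots and no member passed. With median scaling it was -0.71 (adjusted p = 0.031), and Hspa4 and Dnajb1 passed too. Between sexes, female less male, they were apart by 0.31 ± 0.15 (SE, limma adjusted p = 0.81), where 0% of spots passed.

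By breeding line, the ethanol difference of Hspe1 was 0.30 ± 0.12 in WSR-2, 0.27 ± 0.12 in WSR-1, -0.16 ± 0.12 in WSP-2 and 0.05 ± 0.12 in WSP-1 (SE). The limma adjusted p was 0.49 or more in each, the value in WSP-1 turned negative with median scaling and in the authors' table, and no member passed. With median scaling Hspe1 was called higher after EtOH in WSR-2 (0.47, adjusted p = 0.035) and in WSR-1 (0.50, adjusted p = 0.014). Hspa4 was called in WSR-1 with that scaling as well. The share of all spots that passed was 0% in WSR-2, 0.096% in WSR-1, 0.768% in WSP-2 and 0.096% in WSP-1. Both WSR lines thus had positive values, each from 4 EtOH and 4 Air arrays, but the sexes were not alike. Female WSR-1 pools were at 7.14 and 7.12 in EtOH, against 6.40 and 6.67 in Air. Male WSR-1 pools overlapped, at 7.84 and 8.03 in EtOH, against 7.97 and 7.99 in Air. In WSR-2 the female pools overlapped, at 7.44 and 7.21 in EtOH, against 7.33 and 6.86 in Air. Male WSR-2 pools were at 8.24 and 8.58 in EtOH, against 8.09 and 7.99 in Air.

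**Figure D4:**
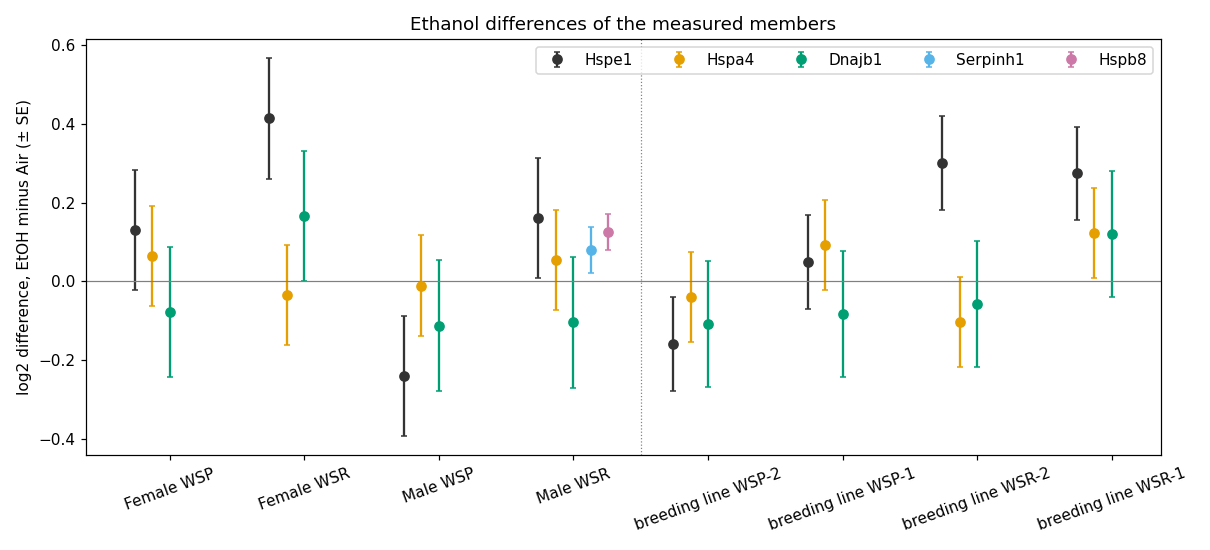
Log2 difference EtOH minus Air with its SE for Hspe1, Hspa4 and Dnajb1 by sex and line (left of the dotted line) and by breeding line (right), with Serpinh1 and Hspb8 drawn in male WSR alone, where their spots were detected. Hspe1 spans -0.24 in male WSP to 0.41 in female WSR, and no adjusted p is under 0.05.

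Ethanol values of Hspa4 and Dnajb1 were smaller than those of Hspe1 in each group of sex and line, though not in WSP-1. Serpinh1 and Hspb8 were below 2 times background outside male WSR, so the sizes of their values there are not ranked. In male WSR, where Hspb8 was detected, it averaged 6.07 ± 0.08 in EtOH and 5.94 ± 0.07 in Air pools (SD, n = 4 each), a log2 difference of 0.13 ± 0.05 (SE). All 4 EtOH arrays exceeded the Air mean, yet the limma adjusted p was 0.9999, and it was between 0.012 and 0.038 with median scaling, cyclic loess or array weights. Serpinh1 there averaged 6.01 ± 0.09 in EtOH and 5.93 ± 0.08 in Air pools (SD, n = 4 each, limma adjusted p of 0.9999). In female WSP, Hspb8 averaged 5.83 ± 0.12 in EtOH and 5.70 ± 0.03 in Air pools (SD, n = 4 each, limma adjusted p = 0.18), with all 8 arrays below 2 times background. Over all groups the log2 differences of EtOH and Air were 0.02 ± 0.06 for Hspa4 and -0.03 ± 0.08 for Dnajb1 (SE, limma adjusted p of 0.95 and 0.92), and Hspe1 was at 0.12 ± 0.08 (SE, limma adjusted p = 0.86). Hspb8 averaged 5.86 ± 0.15 in EtOH and 5.79 ± 0.10 in Air arrays (SD, n = 16 each), with an unadjusted p of 0.0038 and a limma adjusted p of 0.86. Serpinh1 averaged 5.83 ± 0.15 in EtOH and 5.77 ± 0.11 in Air arrays (SD, n = 16 each), with an unadjusted p of 0.033 and a limma adjusted p of 0.86. These 2 of 5 members stood under 0.05 unadjusted over all groups, against 98 of 2084 spots, and both were below 2 times background on most arrays.

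Other spots were sought by title words for protein folding and the response to unfolded proteins. Of the 9 spots found 2 were measured, and neither passed in the 4 ethanol comparisons by sex and line. The words also caught titles such as t-complex-associated testis expressed 3, so not all 9 are folding genes. Ddit3, titled DNA-damage inducible transcript 3, encodes CHOP, a transcription factor induced when unfolded proteins build up in the endoplasmic reticulum. It averaged 8.42 ± 0.16 in male WSP and 7.83 ± 0.38 in male WSR mice (SD, n = 8 each), and the lines overlapped at 8.14 to 8.63 and 7.41 to 8.32. The log2 difference was 0.58 with a limma adjusted p of 8.2e-05, the opposite sign to that of Hspe1, but it was 0.04 with cyclic loess (adjusted p = 0.75) and -2.23 with median scaling. Tcp1, titled t-complex protein 1 and a subunit of the same chaperonin as Cct2 and Cct6a, reached 2 times background on the 8 male WSR arrays alone. Its normalized log2 intensity averaged 5.89 ± 0.11 in male WSP and 5.95 ± 0.04 in male WSR mice (SD, n = 8 each).

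Serpinh1 handles procollagen, and 4 spots were titled for procollagens or the enzyme that hydroxylates them. Of these, 2 were measured. Signal of type IV alpha 1 procollagen over background was 0.953 to 1.15 in male WSP, against 2.55 to 6.12 in male WSR mice. The alpha subunit of proline 4-hydroxylase stood at 0.935 to 1.18 in male WSP, against 1.94 to 4.20 in male WSR mice. Like Serpinh1, both reached 2 times background in male WSR cortex only, on 8 and 7 arrays. The filter thus chose them through the group where their signal was higher. Neither passed in the 4 ethanol comparisons by sex and line.

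Marker spots differed between the male lines as well. Of the 7 measured, 3 were called higher and 2 lower in male WSP than in male WSR mice. For 2 of the 3 higher spots the female lines differed by a like amount without passing. The oligodendrocyte spot stood at a log2 difference of 0.34 in both sexes. The spot for vessels and meninges stood at 0.31 in males and 0.29 in females. These 2 spots reached 2 times background on only 9 and 11 arrays, so the sizes are approximate. The summed normalized intensity of the 7 spots was 1600 to 1830 in male WSP, 1470 to 1820 in male WSR, 1530 to 1910 in female WSP and 1580 to 1830 in female WSR mice. No marker passed in the 4 ethanol comparisons by sex and line, nor between the female lines. The spot titled for a marker of vessels and meninges passed for EtOH in WSP-2 (log2 difference 0.70, limma adjusted p = 0.024) and for the ethanol difference of WSP less that of WSR (0.74, limma adjusted p = 0.040). The part of these cell types in the Hspe1, Serpinh1 and Hspb8 values was not tested.

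With group means taken out, correlations between members were weak to moderate. Correlations of their residuals over 32 arrays ran between -0.32 for Hspa4 with Dnajb1 and 0.47 for Hspb8 with Dnajb1. Hspe1 with Dnajb1 stood at 0.416. The 95th percentile of r over 451 titled spots was 0.417 for Hspb8 and 0.434 for Hspe1. These correlations describe arrays that share brightness and normalization. Hspb8 and Serpinh1 were below 2 times background on all arrays but 7 and 6, so their correlations are mostly between values at background. Among 451 titled spots, those most like Hspe1 were homer 3, a synaptic scaffold gene (r = 0.81 over 32 arrays), augmenter of liver regeneration (r = 0.61) and immediate early response 2 (r = 0.59). The homer 3 spot reached 2 times background on only 9 arrays, and the other 2 spots on 32 and 28. Those most like Serpinh1 were titled bystin-like (r = 0.79), a zinc finger protein (r = 0.76) and bone morphogenetic protein 1 (r = 0.73), spots that reached 2 times background on 7, 8 and 8 arrays. For Hspb8 they were C184L-22 (r = 0.73), the ligand of P-selectin (r = 0.59) and the regulator HCNGP (r = 0.57), at 2 times background on 6, 32 and 4 arrays.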

How the data were processed

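The authors deposited, for each of 32 arrays, 1 spot intensity per row and 1 background intensity per array, not subtracted. Per the labels' protocols, cDNA labelled with 33P was made from total RNA with oligo-dT primers. Platform and scanner were not given in the sources used here, nor was the software. The authors also deposited a score per spot, which equals a straight line of log2 signal on each array to within 1.07e-06, so it keeps the direction of intensity with each array centred and scaled (column medians 7.29 to 8.55, 0 columns without a sample). Its scale between arrays is not known, and it was an alternative only. Spots were joined by spot number, since 1 file was sorted by signal.

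Intensities were background-corrected (normexp, offset 50), quantile normalized over gene spots and put on the log2 scale; the offset understates differences of dim spots. Spots with signal at least 2 times background on 4 or more arrays were kept. limma 3.58.1 in R 4.3.3 fitted 8 group means (24 residual degrees of freedom), or 16 means of sex, breeding line and treatment (16 residual degrees of freedom) for comparisons of breeding lines, with an intensity trend and Benjamini-Hochberg adjustment over 2084 spots; a call is an adjusted p under 0.05. Of 19 comparisons, 2 were added after values were seen. The fit was tested on simulated data for EtOH minus Air in female WSP alone, with values drawn independently for each array. That test does not cover shared breeding lines or differences in array brightness. Figures used matplotlib 3.10.9.

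Members and lists were chosen with earlier results of these data known. Every measured member is named; Hspe1, Hspb8 and Serpinh1 are given in full, and for each the 3 titled spots most like it. Alternatives were cyclic loess, median scaling, uncorrected signals, other filters, the authors' table, no trend, array weights, blocks, leaving out replicates and fitting only the arrays compared. Replicate numbers stand for breeding line and pool, and 5 of 16 EtOH and Air pairs of one number correlated above 0.1 in their deviations.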

Additional observations from a re-analysis of the deposited data

Results flagged for a closer look

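The line difference of Hspe1 depended on sex by the test of the difference itself: the female minus the male line difference was 1.08 on the normalized log2 scale (limma adjusted p = 7.9e-07). The same difference was 0.27 for Hspb8 and 0.19 for Serpinh1. Both spots passed the filter on dim spots through male WSR arrays alone. That choice favours a difference there, so their tests are not findings. All their other arrays lie below 2 times background, so these values are not folds. Of all spots, 53.1% passed this test, and male WSR arrays were also the brightest.

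Serpinh1 in female WSR EtOH replicate 4 stood at 5.70, apart from the other EtOH pools of that group at 5.75 to 5.76. All were below 2 times background. It was 1 of 40 groups of 4 arrays looked at, and chance sets a value apart in about 1 in 20.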

How the results depend on the processing

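Across 15 alternatives, 475 log2 differences of members and Ddit3 kept their direction and side of the threshold, and 249 counts of members called stayed within 1.5 times the reported one. Some of these counts changed by 1 member or held other members: the authors' table, which has 3 members on every array, called 2 (Hspe1 and Hspa4) between lines over both sexes, in males and for the female minus the male line difference. The log2 difference of Hspe1 between male WSP and male WSR stayed below 0 under all of them, at -0.90 to -1.04 when a replicate was left out and -3.39 with median scaling. The cause of the changes below was not tested. Median scaling called 1 member (Hspb8) for EtOH in male WSR, as did cyclic loess (1) and array weights (1), against 0. It called 3 for the ethanol difference between lines, 2 between female lines, 3 between females and males in WSP (1 with loess, 2 in the authors' table), 2 for EtOH in WSR-1, 1 in WSR-2, 1 between WSP-2 and WSP-1 and 3 between WSR-2 and WSR-1 (1 with array weights). Between lines over both sexes and in males, and for the female minus the male line difference, median scaling and loess called 5 members each and the filter at 16 or more arrays, which drops Serpinh1 and Hspb8, called 1. Between females and males in WSR that filter left 2, and 1 was left in the authors' table.

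Leaving out a replicate gave 3 to 4 members between male lines and 2 to 3 between lines. It gave 3 to 4 between females and males in WSR and 2 to 3 for the female minus the male line difference. The other comparisons of sex, line and treatment gave 0. In comparisons of breeding lines it left 1 array per sex and treatment in some lines, so no count is given. The count for EtOH in WSP-2 changed without replicate 3 through Serpinh1, which was below 2 times background on all 8 WSP-2 arrays. Signs also turned when a replicate was left out. Hspe1 between females and males in WSP spanned -0.063 to 0.081, and for EtOH in WSP-1 -0.11 to 0.21. Hspa4 for EtOH over all groups spanned -0.021 to 0.059, and Dnajb1 between female lines -0.05 to 0.17.

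Median scaling turned Hspe1 for EtOH in female WSP (-0.27), for EtOH in WSP-1 (-0.14) and between female lines (-0.38), Hspa4 between male lines (-2.67), between female lines (-0.53) and between females and males in WSR (-1.21), Dnajb1 between female lines (-0.60), and Ddit3 between male lines (-2.23) and between females and males in WSR (-0.51). Cyclic loess turned Hspe1 between females and males in WSP (-0.072 or, with array weights, -0.022), Hspa4 between male lines (-0.48), between female lines (-0.042) and between females and males in WSR (-0.16), and Dnajb1 between female lines (-0.042). The authors' table turned Hspe1 between female lines (-0.11) and for EtOH in WSP-1 (-0.018), Hspa4 between male lines (-0.996), between female lines (-0.056) and between females and males in WSR (-0.0092), and Dnajb1 between females and males in WSR (0.10), between male lines (0.21) and for the female minus the male line difference (-0.21).

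With the replicate number as a block, 3 members passed between male lines, 3 between lines over both sexes, 5 between females and males in WSR (Hspa4 added, adjusted p = 0.049) and 0 in each ethanol comparison. Arrays of one number share a breeding line, but whether their pools were paired cannot be told from these values. Of 16 pairs, 5 correlated above 0.1, 3 of them in male WSR and 2 in female WSP. The correlations lay between -0.10 and 0.41, and 6 of 16 arrays correlated best with their own number. Signal over background limits Serpinh1 and Hspb8 to male WSR arrays.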
